A study of Mus musculus with 15 samples.

Results

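Axon guidance ligands and receptors are cell-surface and secreted proteins that steer growing axons and migrating neurons, and many of them are also used at adult synapses. The members described here were chosen by a rule on gene symbols, with earlier results of these data known. They are the semaphorins, ephrins, netrins, netrin-Gs and Slits as ligands, and the plexins, neuropilins, Eph receptors, Unc5 and Dcc receptors and Robos as receptors. The rule found 71 genes of the 24421 in the count tables, 37 ligands and 34 receptors. They were measured by RNA sequencing of whole mouse cerebellum in 3 genotypes with 5 libraries each, all on the FVB strain. ATXN1[82Q] mice carry human ATXN1 with a stretch of 82 glutamines, the kind of expansion that causes spinocerebellar ataxia type 1, under the promoter of Pcp2, a gene of Purkinje cells. ATXN1[82Q]V591A;S602D mice carry the same expanded transgene under the same promoter with 2 amino acid substitutions, V591A and S602D, and are called substituted below. WT mice are FVB without a transgene. Both transgenes therefore act in Purkinje cells, while the RNA comes from all cells of the tissue. No age is labelled, and nothing ties each library to its own mouse, so p-values measure the spread between libraries only.

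Semaphorins signal through plexins, with neuropilins as partners for the secreted class 3 semaphorins. Ephrins on one cell bind Eph receptor kinases on another, and both sides can signal. Netrins attract axons through Dcc and repel them through Unc5 receptors, Slits repel axons through Robos, and netrin-Gs are membrane-anchored relatives of netrins that bind synaptic adhesion proteins instead. In the developing cerebellum these systems guide granule cells, climbing fibres and mossy fibres, and in mouse cerebellum Sema7a made by Purkinje cells takes part in the pruning of climbing fibre synapses through the receptor Plxnc1. ATXN1 binds the repressor Capicua, CIC, which recognises 8-base sites such as TGAATGAA. The substitutions V591A and S602D weaken that binding, and the comparison of the transgenes shows which levels differ between these genotypes. No transgene level is given here. A difference in that level, or between the mouse lines, cannot be told apart from the weakened binding.

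Of the members called between ATXN1[82Q] and WT, the promoters of the one with the largest fall and of the one with the largest rise are shown because the rest of the text turns on them, and a stretch of the promoter of Epha2 is shown because it held the Capicua site. Sequences are from RefSeq on GRCm38.p6, printed 5′ to 3′, and 61 of the 71 members had a promoter in that table. The first pair are the 250 bases before the RefSeq start, with the dinucleotide CG in capitals. The stretch from Epha2, chr4:141301191-141301228 on the plus strand, is 38 bases long with the octamer in capitals, which begins 15 bases before the start.
Sema7a, chr9:57939862-57940111, plus strand: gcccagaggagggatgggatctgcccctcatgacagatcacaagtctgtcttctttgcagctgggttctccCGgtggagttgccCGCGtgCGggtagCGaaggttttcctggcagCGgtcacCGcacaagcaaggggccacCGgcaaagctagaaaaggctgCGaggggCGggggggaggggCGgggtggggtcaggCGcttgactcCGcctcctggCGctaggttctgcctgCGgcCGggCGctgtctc
Slit2, chr5:47982905-47983154, plus strand: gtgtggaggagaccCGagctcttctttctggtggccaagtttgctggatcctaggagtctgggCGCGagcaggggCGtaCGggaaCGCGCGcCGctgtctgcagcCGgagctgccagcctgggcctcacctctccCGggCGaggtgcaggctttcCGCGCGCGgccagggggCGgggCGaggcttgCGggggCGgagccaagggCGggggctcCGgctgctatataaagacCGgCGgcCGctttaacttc
Epha2: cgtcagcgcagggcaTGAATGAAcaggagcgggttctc

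The Sema7a window held 17 CG dinucleotides and the Slit2 window 25, against a median of 15 over the 77 promoters of members and 6 over all 32851 promoters. The octamers TGAATGAA, TGAATGGA, TCAATGAA and TCAATGGA were searched on both strands of the 300 bases around each start. A match was found in 1 of the 77 member promoters, 1.3%, and in 1260 of the 32851 promoters, 3.84%. Dcc and Sema6a, on chromosome 18, were left out of the member promoters, while the set of all promoters was not filtered in this way. The match was in Epha2, an ephrin-A receptor. Epha2 had 1.75, 3.11, 1.67, 1.67 and 1.35 CPM in ATXN1[82Q] libraries, 1.78, 1.29, 1.88, 2.28 and 2.26 CPM in substituted libraries and 2.24, 1.77, 1.73, 1.59 and 0.957 CPM in WT libraries. These ranges overlapped, and Epha2 was not called in ATXN1[82Q] against WT (log2 fold change 0.20, SE 0.24, adjusted p = 0.548). The search says only which letters are in these windows.

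Libraries held 36467948 to 42818401 counts in ATXN1[82Q], 38468429 to 41480492 in substituted and 38067915 to 40640811 in WT mice. Levels are counts scaled to library size (CPM, after TMM scaling), and a gene was called when its adjusted p was under 0.05 in the edgeR quasi-likelihood test, with Benjamini-Hochberg adjustment over 15843 tested genes. All adjusted p-values below come from that test. Markers of cerebellar neurons were present, with summed levels of 15 Purkinje cell markers of 3460 to 4168 CPM in ATXN1[82Q], 6652 to 9089.7 CPM in substituted and 9357 to 10639 CPM in WT libraries. All 15 were called lower in ATXN1[82Q] against WT, and 10 of 15 in substituted against WT. In bulk tissue, fewer cells of a type and less RNA per cell cannot be told apart. Of the other marker lists, 7 of 8 granule cell markers were called lower in ATXN1[82Q] against WT, and 10 of 10 microglial, 7 of 8 oligodendrocyte, 3 of 4 oligodendrocyte precursor, 4 of 6 interneuron, 3 of 10 endothelial and mural, 4 of the 5 tested brainstem neuron and 7 of 7 meningeal fibroblast markers were called higher. Astrocyte and Bergmann glia markers were called in both directions, 4 higher and 3 lower of 8, and none of 9 choroid plexus markers was called. The part of these lists in the results on guidance genes was not tested, except where a value is given below.

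Per kilobase of exon, Sema7a had the highest level of all members, 47.6 CPM per kilobase in ATXN1[82Q], 77.5 in substituted and 86.5 in WT cerebellum. The next in order in WT were Plxnb2 at 23.1, Efnb3 at 21.9, Unc5b at 18.7, Sema4g at 18.6, Epha8 at 17.8 and Ntn1 at 16.97 CPM per kilobase. At the other end, Efna4 and Ntn5 had mean levels under 1 CPM in every genotype, and Ntn5 did not pass the minimum count and was not tested. In WT libraries 48 members had a mean over 10 CPM, and 10 of these a mean over 100 CPM.

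**Figure D1:**
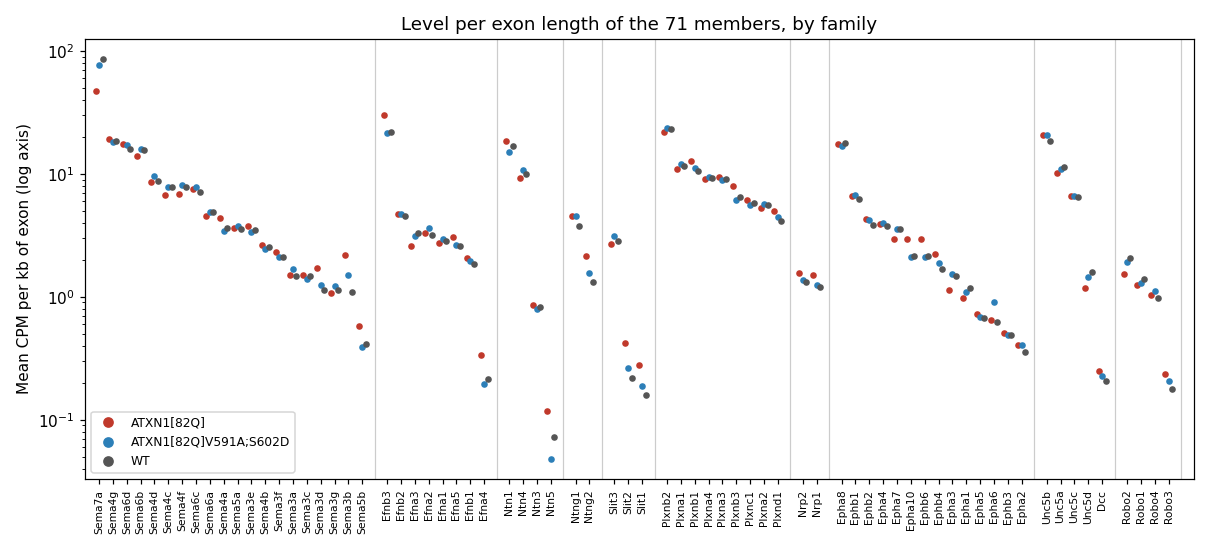
Mean level of each of the 71 members in CPM per kilobase of exon on a log axis, by family, with a point for ATXN1[82Q], ATXN1[82Q]V591A;S602D and WT (5 libraries each). Sema7a stands above the other members in every genotype, at 47.6 CPM per kilobase in ATXN1[82Q] and 86.5 in WT.

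In ATXN1[82Q] against WT, 26 of the 70 tested members were called, 37.1%, where 31.5% of all tested genes were called. Of these members 15 rose and 11 fell, against 16.6% and 14.9% of all genes, so the members' shares lay near the background. Only Slit2, Ntng2, Sema3d and Sema7a were called with a change over 1.5-fold, 5.71% of the members tested, against 8.17% of all genes. The median log2 fold change was 0.066 over the members and 0.0069 over all genes. The 5 libraries of ATXN1[82Q] and the 5 of WT did not overlap for 16 members, 22.9%, against 19.2% of all genes. In 8 of these ATXN1[82Q] was above and in 8 below, against 9.36% and 9.79% of all genes. Both neuropilins, both netrin-Gs, 3 of 9 plexins and 3 of 5 EphB receptors rose with none of those families falling, whereas 4 of 20 semaphorins, 3 of 9 EphA receptors and 2 of 4 Robos fell. A further semaphorin, Sema3d, and a further EphA receptor, Epha10, rose. With few members in each family, these counts describe the named members only, and no family was tested as a set.

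**Figure D2:**
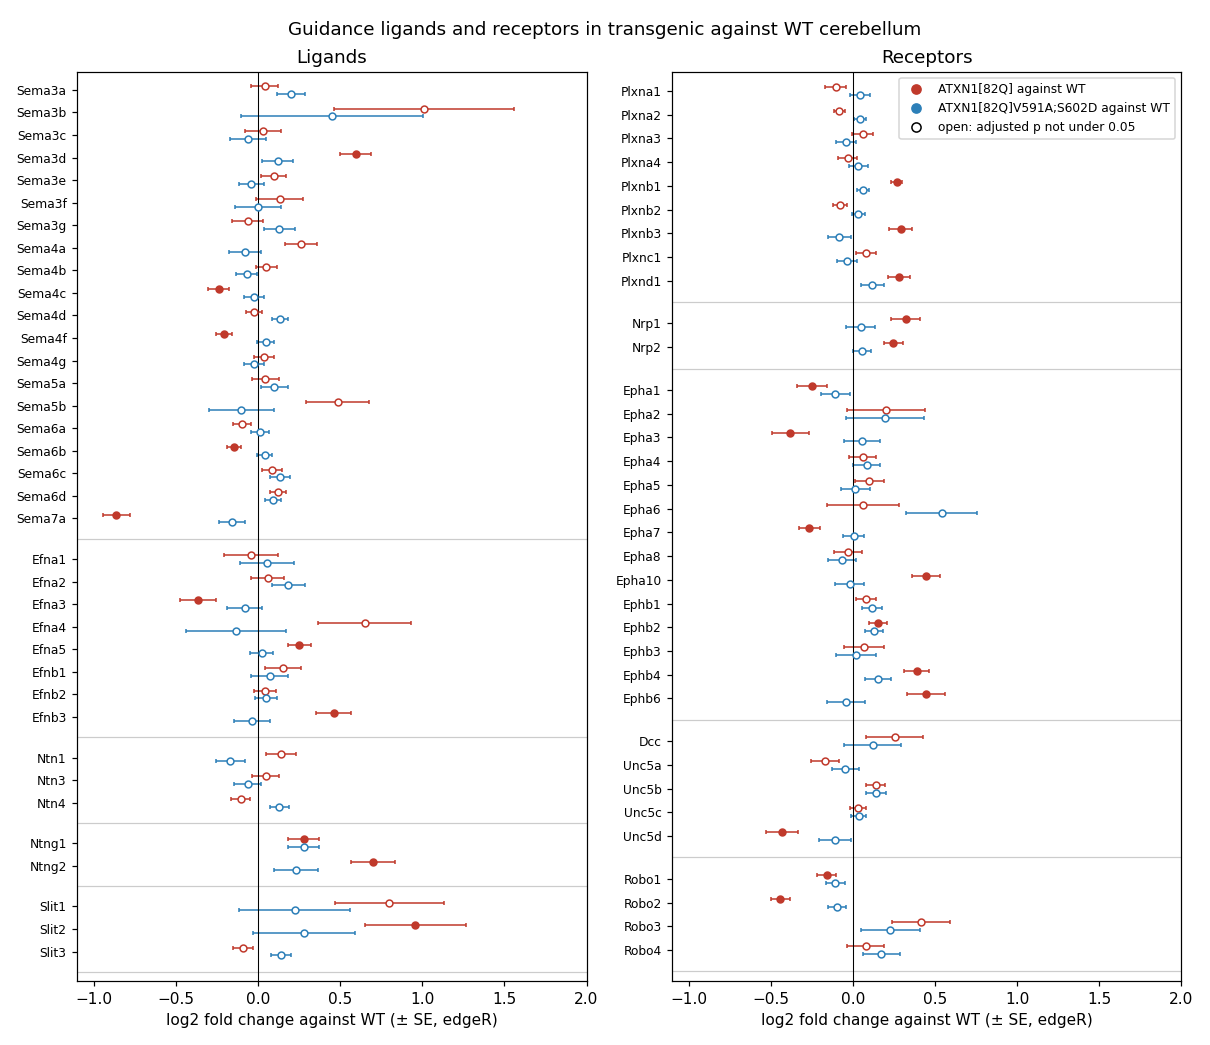
Log2 fold change against WT with its SE for the 70 tested members, ligands on the left and receptors on the right. ATXN1[82Q] is in red and ATXN1[82Q]V591A;S602D in blue, with filled points for an adjusted p under 0.05. The SE was derived from the edgeR F statistic. Sema7a is the lowest filled point at -0.86 and Slit2 the highest at 0.96, and no blue point is filled.

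Among the ligands, the largest fall was that of Sema7a (chr9:57940112-57962865, plus strand in GENCODE M21), a membrane-anchored semaphorin. Sema7a had 165, 174, 144, 148 and 153 CPM in ATXN1[82Q] libraries, 218, 257, 293, 236 and 273 CPM in substituted libraries and 272, 285, 303, 323 and 243 CPM in WT libraries. All ATXN1[82Q] libraries lay below all WT libraries and all substituted libraries, and Sema7a fell 1.82-fold against WT (log2 fold change -0.86, SE 0.082, adjusted p = 5.39e-07) and 1.63-fold against the substituted transgene (log2 fold change -0.70, SE 0.082, adjusted p = 1.58e-05). It was the only member called in both comparisons under every alternative setting and without any single library. The Purkinje cell marker sum was also lower in every ATXN1[82Q] library than in every other library, and its part in the fall of Sema7a was not tested. Plxnc1, the plexin that binds Sema7a, had 54.5, 47.2, 50.9, 50.9 and 50.6 CPM in ATXN1[82Q] libraries, 45.3, 45.5, 45.3, 47.4 and 51.2 CPM in substituted libraries and 44.3, 55.3, 43.7, 49.2 and 48.1 CPM in WT libraries. The genotypes overlapped for this receptor and it was not called (log2 fold change 0.079, SE 0.060, adjusted p = 0.339 against WT).

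The other semaphorins that fell against WT were transmembrane ones. Sema4f, which binds a postsynaptic scaffold protein, had 35.8, 38.7, 37.2, 35.4 and 33.5 CPM in ATXN1[82Q] libraries, 40.05, 45.3, 43.2, 40.7 and 45.9 CPM in substituted libraries and 41.5, 41.5, 43.2, 42.9 and 39.3 CPM in WT libraries. Every ATXN1[82Q] library lay below the others, against WT (log2 fold change -0.21, SE 0.049, adjusted p = 0.00395) and against substituted (log2 fold change -0.25, SE 0.049, adjusted p = 0.00126). Sema4c, a ligand of the plexin Plxnb2, had 32.1, 30.4, 28.9, 30.2 and 32.1 CPM in ATXN1[82Q] libraries, 30.4, 40.9, 37.1, 34.3 and 35.7 CPM in substituted libraries and 35.04, 36.5, 36.5, 37.7 and 35.8 CPM in WT libraries. It fell without overlap against WT (log2 fold change -0.24, SE 0.061, adjusted p = 0.00628) and, with overlapping libraries, against substituted (log2 fold change -0.21, SE 0.061, adjusted p = 0.0150), and 7.27% of its exon bases overlap another annotated gene. Sema6b, a ligand of class A plexins, had 53.3, 55.02, 53.2, 57.8 and 60.1 CPM in ATXN1[82Q] libraries, 57.7, 63.1, 64.8, 64.6 and 67.8 CPM in substituted libraries and 61.1, 64.4, 60.7, 62.6 and 60.4 CPM in WT libraries. Its fall was small but without overlap against WT (log2 fold change -0.15, SE 0.044, adjusted p = 0.0181), and it fell against substituted with overlap (log2 fold change -0.19, SE 0.044, adjusted p = 0.00504).

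Sema3d, a secreted class 3 semaphorin (chr5:12383385-12588948, plus strand), was the only semaphorin that rose against WT. Sema3d had 17.3, 14.4, 16.5, 13.1 and 12.7 CPM in ATXN1[82Q] libraries, 10.2, 10.8, 10.1, 11.3 and 10.8 CPM in substituted libraries and 9.34, 10.6, 9.89, 8.04 and 11.2 CPM in WT libraries. Every ATXN1[82Q] library lay above every other library, and the rise was 1.51-fold against WT (log2 fold change 0.59, SE 0.094, adjusted p = 0.000144) and 1.39-fold against substituted (log2 fold change 0.48, SE 0.094, adjusted p = 0.00142). Sema3b, another secreted class 3 semaphorin, is given because of its spread, chosen after its values were seen. It had 4.73, 11.6, 5.47, 14.1 and 16.6 CPM in ATXN1[82Q] libraries, 1.78, 9.53, 8.36, 12.8 and 3.35 CPM in substituted libraries and 5.38, 2.74, 2.19, 2.07 and 13.7 CPM in WT libraries. The libraries of all genotypes overlapped widely and Sema3b was not called (log2 fold change 1.01, SE 0.55, adjusted p = 0.174 against WT).

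Several semaphorins were called between the transgenes but not against WT. Sema4a, which can bind plexins of classes B and D, had 21.4, 18.9, 23.9, 27.7 and 26.4 CPM in ATXN1[82Q] libraries, 18.3, 17.4, 17.7, 19.8 and 20.3 CPM in substituted libraries and 19.3, 23.3, 18.3, 17.2 and 20.7 CPM in WT libraries. The ATXN1[82Q] libraries other than library 2 lay above all substituted ones, and it rose against substituted (log2 fold change 0.34, SE 0.097, adjusted p = 0.0150), with log2 fold change 0.26, SE 0.097, adjusted p = 0.0504 against WT. Sema4d, the main ligand of Plxnb1, had 68.02, 73.1, 65.7, 64.4 and 61.9 CPM in ATXN1[82Q] libraries, 78.7, 72.998, 73.9, 72.2 and 73.5 CPM in substituted libraries and 68.7, 68.9, 74.03, 65.1 and 62.1 CPM in WT libraries. It fell against substituted (log2 fold change -0.16, SE 0.049, adjusted p = 0.0238), while its values in ATXN1[82Q] and WT libraries covered much the same range. That call was lost without ATXN1[82Q] library 4 or 5 or without substituted library 1 (adjusted p up to 0.0730). Sema5b, a transmembrane semaphorin with thrombospondin repeats, had 3.3997, 2.76, 4.02, 4.69 and 5.78 CPM in ATXN1[82Q] libraries, 2.795, 2.44, 2.51, 2.38 and 3.64 CPM in substituted libraries and 2.71, 2.53, 3.22, 2.27 and 4.03 CPM in WT libraries. It rose against substituted with overlap (log2 fold change 0.59, SE 0.19, adjusted p = 0.0316), and the call was lost without substituted library 1, 2, 3 or 4 or ATXN1[82Q] library 4 or 5 (adjusted p up to 0.0978). The remaining semaphorins were called in no comparison.

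Of the 8 ephrins, Efnb3 and Efna5 rose and Efna3 fell against WT. Efnb3, a transmembrane ephrin of the spinal cord midline that repels axons bearing Epha4, had 83.9, 93.4, 86.2, 96.2 and 120.0 CPM in ATXN1[82Q] libraries, 68.3, 69.7, 63.8, 72.2 and 66.03 CPM in substituted libraries and 74.8, 54.2, 61.6, 70.1 and 87.7 CPM in WT libraries. The ATXN1[82Q] libraries lay above all substituted libraries and overlapped WT through WT library 5, and Efnb3 rose 1.38-fold against WT (log2 fold change 0.46, SE 0.11, adjusted p = 0.00356) and 1.41-fold against substituted (log2 fold change 0.50, SE 0.11, adjusted p = 0.00280). Epha4 itself had 37.2, 34.5, 30.2, 26.5 and 28.6 CPM in ATXN1[82Q] libraries, 31.7, 33.6, 31.9, 30.5 and 31.97 CPM in substituted libraries and 30.2, 27.8, 32.02, 33.5 and 27.1 CPM in WT libraries. Its genotypes overlapped and it was not called (log2 fold change 0.060, SE 0.081, adjusted p = 0.608 against WT).

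Efna5, a lipid-anchored ephrin that maps axons by repulsion in the visual system, had 13.4, 13.9, 10.9, 12.1 and 11.9 CPM in ATXN1[82Q] libraries, 11.4, 9.996, 10.4, 10.8 and 10.6 CPM in substituted libraries and 9.75, 10.8, 9.64, 11.01 and 11.1 CPM in WT libraries. It rose with overlap in both comparisons, against WT (log2 fold change 0.25, SE 0.071, adjusted p = 0.0119) and against substituted (log2 fold change 0.23, SE 0.070, adjusted p = 0.0233). The call against substituted was lost without ATXN1[82Q] library 1 or 2 or substituted library 2 or 3 (adjusted p up to 0.0630). Efna3, also lipid-anchored, had 6.48, 6.09, 5.999, 5.51 and 7.26 CPM in ATXN1[82Q] libraries, 5.71, 7.41, 9.19, 7.36 and 8.47 CPM in substituted libraries and 7.28, 8.92, 8.18, 8.04 and 7.93 CPM in WT libraries. It fell without overlap against WT (log2 fold change -0.36, SE 0.11, adjusted p = 0.0172), was not called against substituted (log2 fold change -0.28, SE 0.11, adjusted p = 0.0625), and shares 14.1% of its exon bases with a gene on the other strand. Efna4 had 0.425, 0.587, 0.4302, 0.532 and 0.699 CPM in ATXN1[82Q] libraries, 0.223, 0.317, 0.209, 0.5702 and 0.234 CPM in substituted libraries and 0.377, 0.349, 0.271, 0.453 and 0.252 CPM in WT libraries. At these low levels it was called against substituted just under the threshold (log2 fold change 0.78, SE 0.29, adjusted p = 0.0499), the call was lost without 12 of the 15 libraries taken singly (adjusted p up to 0.128), and 10.5% of its exon bases overlap another gene. The libraries whose removal left that call in place were ATXN1[82Q] libraries 1 and 3 and substituted library 4.

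None of the 3 tested netrins was called against WT, and both netrin-Gs were. Ntng2 (chr2:29194541-29253005, minus strand), which binds the synaptic protein Lrrc4, had 8.39, 8.904, 7.65, 8.29 and 9.59 CPM in ATXN1[82Q] libraries, 7.396, 6.75, 5.25, 6.12 and 5.403 CPM in substituted libraries and 4.47, 4.76, 5.69, 4.26 and 7.17 CPM in WT libraries. Its 5 ATXN1[82Q] libraries lay above the others, and Ntng2 rose 1.63-fold against WT (log2 fold change 0.70, SE 0.13, adjusted p = 0.000672) and 1.38-fold against substituted (log2 fold change 0.47, SE 0.13, adjusted p = 0.0135), with 13.98% of its exon bases shared with another gene on the same strand. Ntng1, which binds Lrrc4c, had 38.5, 40.95, 37.7, 35.9 and 35.5 CPM in ATXN1[82Q] libraries, 37.9, 41.8, 38.7, 31.05 and 38.7 CPM in substituted libraries and 35.6, 25.9, 30.99, 36.5 and 26.3 CPM in WT libraries. It rose with overlap against WT (log2 fold change 0.28, SE 0.095, adjusted p = 0.0327) and differed little between the transgenes (log2 fold change 0.0016, SE 0.094, adjusted p = 0.992). The call was lost without ATXN1[82Q] library 1, 2 or 3 or WT library 2, 3 or 5 (adjusted p up to 0.0911).

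Ntn1 and Ntn4 were called between the transgenes, where Ntn3 was not called. Ntn1, the classical netrin that binds Dcc and Unc5 receptors, had 116, 96.7, 119.8, 132 and 123 CPM in ATXN1[82Q] libraries, 99.2, 87.7, 89.1, 102 and 96.2 CPM in substituted libraries and 107, 122, 92.2, 89.1 and 123 CPM in WT libraries. It rose against substituted (log2 fold change 0.31, SE 0.091, adjusted p = 0.0175) and the call was lost without ATXN1[82Q] library 4 (adjusted p = 0.0516), while against WT the log2 fold change was 0.14 with overlapping libraries. Ntn4, a netrin of basement membranes, had 37.4, 37.6, 33.6, 32.7 and 31.4 CPM in ATXN1[82Q] libraries, 41.6, 42.1, 42.8, 40.4 and 36.5 CPM in substituted libraries and 35.97, 35.1, 39.4, 39.2 and 36.3 CPM in WT libraries. It fell against substituted with overlap (log2 fold change -0.24, SE 0.059, adjusted p = 0.00667). Ntn5 was listed at 0.145 to 0.359 CPM in ATXN1[82Q], 0.0259 to 0.195 CPM in substituted and 0.101 to 0.296 CPM in WT libraries.

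Slit2 (chr5:47983138-48307733, plus strand), a secreted repellent for Robo-bearing axons, had the largest rise of the called members. It had 7.01, 11.5, 7.31, 11.7 and 16.1 CPM in ATXN1[82Q] libraries, 3.93, 6.07, 7.55, 10.6 and 5.51 CPM in substituted libraries and 6.31, 3.896, 2.98, 4.69 and 9.74 CPM in WT libraries. The ranges overlapped, with WT library 5 above ATXN1[82Q] libraries 1 and 3, and Slit2 rose 1.94-fold against WT (log2 fold change 0.96, SE 0.31, adjusted p = 0.0248) but was not called against substituted (log2 fold change 0.68, SE 0.30, adjusted p = 0.105). The call was lost without ATXN1[82Q] library 5 or WT library 2, 3 or 4 (adjusted p up to 0.0771). Slit3 had 14.3, 16.5, 16.7, 16.1 and 17.5 CPM in ATXN1[82Q] libraries, 19.2, 19.4, 18.8, 18.4 and 19.5 CPM in substituted libraries and 15.8, 16.2, 19.3, 18.1 and 17.1 CPM in WT libraries. Its ATXN1[82Q] libraries lay below all substituted libraries (log2 fold change -0.23, SE 0.061, adjusted p = 0.00932), and Slit3 was not called against WT. Slit1 had 1.01, 1.101, 1.004, 2.103 and 3.02 CPM in ATXN1[82Q] libraries, 0.816, 1.76, 1.02, 0.855 and 1.09 CPM in substituted libraries and 1.28, 0.564, 1.08, 0.6802 and 1.13 CPM in WT libraries. It was low, overlapped between genotypes and was not called (log2 fold change 0.80, SE 0.33, adjusted p = 0.0748 against WT).

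Markers of tissues that border the cerebellum are given here beside Slit2, Sema3b and Sema3d. The summed level of the 7 meningeal fibroblast markers was 447, 481, 496, 561 and 639 CPM in ATXN1[82Q], 219.9, 358, 333, 410.4 and 323 CPM in substituted and 284, 309, 203, 199 and 424 CPM in WT libraries 1 to 5. The sums of ATXN1[82Q] lay above all others, so this sum and the genotype cannot be told apart, and all 7 markers were detected. Within ATXN1[82Q], Sema3d was highest in library 1, which had the lowest sum, and lowest in library 5, which had the highest. Slit2 and Sema3b went the other way, lowest in library 1 (7.01 and 4.73 CPM) and highest in library 5 (16.1 and 16.6 CPM). The part of meningeal tissue in these levels was not tested. The 9 choroid plexus markers summed to 42.7, 3432, 28.8, 3450.4 and 5148 CPM in ATXN1[82Q], 37.2, 1979, 2382, 3768 and 59.2 CPM in substituted and 1186, 26.2, 66.0, 19.3 and 4015 CPM in WT libraries, which is a split within each genotype. Slit2 kept its call against WT with the choroid plexus marker mean as a covariate and among the 7 libraries with Ttr under 100 CPM, and Sema3b was called against WT in both of these settings. Those 7 libraries were ATXN1[82Q] 1 and 3, substituted 1 and 5 and WT 2, 3 and 4. The 16 brainstem neuron markers, 10 of them with fewer than 100 counts over the 15 libraries, summed to 1.57 to 22.3 CPM in ATXN1[82Q], 1.35 to 4.87 CPM in substituted and 0.994 to 2.14 CPM in WT libraries, with the highest sums in ATXN1[82Q] libraries 5 (22.3 CPM) and 2 (7.17 CPM). In the 12 libraries with a sum under 3 CPM, Slit2 was not called against WT and Sema3d was. That setting left out ATXN1[82Q] libraries 2 and 5 and substituted library 4. Removing ATXN1[82Q] library 5 alone also ended the Slit2 call. With the meningeal marker mean as a covariate, the log2 fold change of Slit2 against WT was -0.23 and that of Sema3d was 0.31, and neither of them was called. In that setting Sema7a and Ntng1 were the only ones of the 26 members called against WT that kept their call, and Sema7a alone kept its call of the 27 called against substituted. The adjusted p against WT was then 0.0586 for Robo2, 0.178 for Plxnb1, 0.193 for Ntng2, 0.434 for Unc5d, 0.606 for Efnb3 and 0.934 for Epha10.

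**Figure D3:**
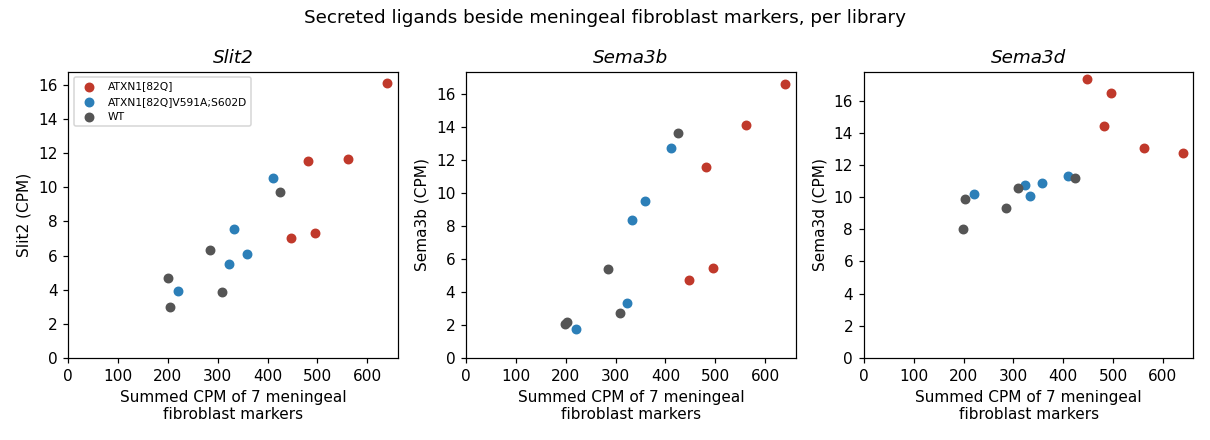
Level of Slit2, Sema3b and Sema3d in CPM against the summed CPM of 7 meningeal fibroblast markers, a point per library, coloured by genotype. The 5 ATXN1[82Q] libraries lie to the right of all others, from 447 to 639 CPM of the marker sum, and Sema3d there lies above every other library.

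Among the receptors, 9 of 34 rose against WT, 26.5% where 16.6% of all genes rose. The 6 that fell were 17.6%, where 14.9% of all genes fell. Of the 9 plexins, Plxnb1, Plxnb3 and Plxnd1 rose and none fell. Plxnb1, the receptor of Sema4d, had 124, 123, 115, 124 and 128 CPM in ATXN1[82Q] libraries, 103, 103, 110.1, 106 and 110.4 CPM in substituted libraries and 100.1, 108, 98.4, 100.2 and 104 CPM in WT libraries. Its ATXN1[82Q] libraries lay above all others, and the change was small but with a small spread, 1.20-fold against WT (log2 fold change 0.27, SE 0.034, adjusted p = 1.46e-05) and 1.15-fold against substituted (log2 fold change 0.21, SE 0.034, adjusted p = 0.000360). Plxnb3, a plexin of oligodendrocytes and a receptor of Sema5a, had 57.4, 49.9, 49.4, 49.3 and 51.4 CPM in ATXN1[82Q] libraries, 35.7, 39.9, 41.2, 39.3 and 42.5 CPM in substituted libraries and 45.5, 36.7, 38.1, 47.4 and 42.6 CPM in WT libraries. It rose without overlap against WT (log2 fold change 0.29, SE 0.069, adjusted p = 0.00392) and against substituted (log2 fold change 0.37, SE 0.069, adjusted p = 0.000851), in the same libraries where 7 of 8 oligodendrocyte markers were called higher than in WT. Their part in this rise was not tested. Sema5a had 76.1, 78.5, 62.8, 61.6 and 63.6 CPM in ATXN1[82Q] libraries, 76.95, 72.05, 65.9, 67.8 and 73.1 CPM in substituted libraries and 63.4, 61.02, 79.4, 68.5 and 59.99 CPM in WT libraries. Its ranges overlapped in every comparison and it was not called (log2 fold change 0.043, SE 0.081, adjusted p = 0.719 against WT).

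Plxnd1, a plexin of blood vessels and neurons that binds Sema3e without a neuropilin, had 39.4, 32.2, 38.8, 37.4 and 35.8 CPM in ATXN1[82Q] libraries, 36.4, 33.6, 28.96, 32.4 and 32.9 CPM in substituted libraries and 29.3, 27.97, 30.3, 29.2 and 34.4 CPM in WT libraries. It rose against WT with overlap (log2 fold change 0.28, SE 0.069, adjusted p = 0.00504) and was not called against substituted (log2 fold change 0.16, SE 0.068, adjusted p = 0.0893). Sema3e had 41.1, 34.5, 35.1, 30.7 and 32.5 CPM in ATXN1[82Q] libraries, 33.3, 35.7, 30.4, 29.03 and 29.4 CPM in substituted libraries and 31.7, 34.6, 30.8, 35.5 and 29.98 CPM in WT libraries. It was not called (log2 fold change 0.096, SE 0.077, adjusted p = 0.368 against WT) and its genotypes overlapped. Plxna2, a receptor of class 6 semaphorins that guides migrating granule cells, had 88.6, 93.8, 88.96, 86.7 and 91.8 CPM in ATXN1[82Q] libraries, 101, 95.3, 96.7, 96.3 and 102 CPM in substituted libraries and 91.1, 94.1, 100.1, 99.6 and 91.5 CPM in WT libraries. It fell without overlap against substituted (log2 fold change -0.13, SE 0.034, adjusted p = 0.0118) and was not called against WT (log2 fold change -0.082, SE 0.034, adjusted p = 0.0770). The 4 class A plexins had log2 fold changes of -0.10 to 0.059 against WT.

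Plxnd1, Nrp1 and Ephb4 are also genes of blood vessels, as are Robo4 and Efnb2, which were not called against WT. The 10 endothelial and mural markers summed to 276 to 304 CPM in ATXN1[82Q], 234 to 264 CPM in substituted and 223 to 251.2 CPM in WT libraries. The 3 called higher against WT were Kcnj8, Pdgfrb and Vtn, which mark mural cells. The other 7, the mural marker Rgs5 and the endothelial markers, were not called. The part of these markers in the rise of Plxnd1, Nrp1 and Ephb4 was not tested.

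Both neuropilins rose in both comparisons. Nrp1, which binds Sema3a and vascular endothelial growth factor, had 14.5, 16.5, 13.7, 14.4 and 14.7 CPM in ATXN1[82Q] libraries, 12.4, 13.3, 11.5, 13.5 and 10.3 CPM in substituted libraries and 11.6, 10.6, 12.2, 10.4 and 14.1 CPM in WT libraries. Its ATXN1[82Q] libraries lay above all substituted libraries and overlapped WT through WT library 5, with a rise against WT (log2 fold change 0.32, SE 0.088, adjusted p = 0.0101) and against substituted (log2 fold change 0.27, SE 0.088, adjusted p = 0.0282). Nrp2, which binds Sema3f, had 20.9, 19.3, 16.99, 16.7 and 18.5 CPM in ATXN1[82Q] libraries, 16.2, 15.6, 16.6, 16.4 and 16.2 CPM in substituted libraries and 15.3, 15.2, 15.3, 15.7 and 16.3 CPM in WT libraries. All ATXN1[82Q] libraries lay above all others, if narrowly, against WT (log2 fold change 0.25, SE 0.057, adjusted p = 0.00317) and against substituted (log2 fold change 0.19, SE 0.057, adjusted p = 0.0189). The calls against substituted were lost without ATXN1[82Q] library 2 or substituted library 3 or 5 for Nrp1 (adjusted p up to 0.0777) and without ATXN1[82Q] library 1 for Nrp2 (adjusted p = 0.0538).

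**Figure D4:**
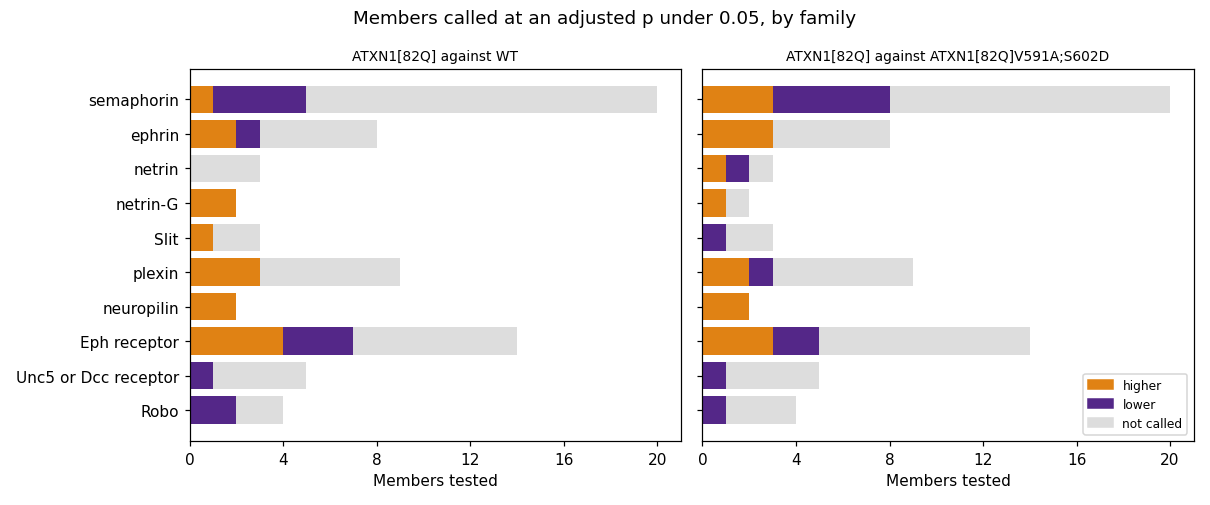
Number of tested members called higher (orange), lower (purple) or not called (grey) per family, in ATXN1[82Q] against WT on the left and against ATXN1[82Q]V591A;S602D on the right. Neuropilins and plexins have no member called lower against WT, and Robos have 2 called lower and none called higher.

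The Eph receptors split by member. Epha10, which lacks kinase activity, had 19.4, 20.3, 20.1, 21.7 and 24.3 CPM in ATXN1[82Q] libraries, 14.5, 15.1, 15.2, 14.98 and 16.9 CPM in substituted libraries and 15.4, 17.8, 12.4, 14.5 and 17.6 CPM in WT libraries. In ATXN1[82Q] all libraries lay above the others, and it rose 1.36-fold against WT (log2 fold change 0.45, SE 0.088, adjusted p = 0.00100) and 1.38-fold against substituted (log2 fold change 0.46, SE 0.088, adjusted p = 0.00104). Ephb6, also without kinase activity, had 10.4, 10.3, 9.44, 11.5 and 13.8 CPM in ATXN1[82Q] libraries, 6.58, 9.02, 7.62, 8.27 and 8.05 CPM in substituted libraries and 8.52, 9.22, 6.18, 8.62 and 8.13 CPM in WT libraries. It rose without overlap against WT (log2 fold change 0.44, SE 0.12, adjusted p = 0.00726) and against substituted (log2 fold change 0.48, SE 0.12, adjusted p = 0.00518). The call of Ephb6 against WT was lost with the brainstem marker mean as a covariate. It was also lost in libraries with brainstem sums under 3 CPM and in those with Ttr under 100 CPM. Ephb4, a receptor of venous endothelium, had 10.4, 11.5, 10.6, 9.89 and 9.02 CPM in ATXN1[82Q] libraries, 7.92, 8.27, 8.72, 9.36 and 9.43 CPM in substituted libraries and 7.96, 8.598, 7.15, 8.19 and 7.35 CPM in WT libraries. It rose without overlap against WT (log2 fold change 0.39, SE 0.078, adjusted p = 0.00110) and with overlap against substituted (log2 fold change 0.23, SE 0.077, adjusted p = 0.0317), a call that was lost without library 1, 2 or 3 of either transgene (adjusted p up to 0.0828). Efnb2, the arterial ligand of Ephb4, had 35.8, 34.5, 31.4, 32.03 and 28.4 CPM in ATXN1[82Q] libraries, 31.9, 32.9, 34.6, 30.9 and 32.4 CPM in substituted libraries and 31.95, 36.003, 29.5, 29.2 and 30.7 CPM in WT libraries. Its ranges overlapped and it was not called (log2 fold change 0.043, SE 0.065, adjusted p = 0.651 against WT). Ephb2 rose slightly against WT (log2 fold change 0.15, SE 0.055, adjusted p = 0.0398), and the call was lost without ATXN1[82Q] library 3, 4 or 5 or WT library 1, 3 or 4 (adjusted p up to 0.111).

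The EphA receptors that fell were Epha3, Epha7 and Epha1. Epha3, a receptor of ephrin-A ligands, had 10.9, 11.1, 9.15, 8.92 and 9.23 CPM in ATXN1[82Q] libraries, 14.8, 11.97, 13.2, 12.1 and 14.5 CPM in substituted libraries and 11.8, 16.2, 14.4, 10.98 and 10.8 CPM in WT libraries. Its ATXN1[82Q] libraries lay below all substituted libraries (log2 fold change -0.43, SE 0.11, adjusted p = 0.00803) and overlapped WT (log2 fold change -0.38, SE 0.11, adjusted p = 0.0147), where WT library 2 was the highest. Epha7, which binds Efna5 and has a short form without kinase, had 30.7, 31.6, 29.9, 27.1 and 26.4 CPM in ATXN1[82Q] libraries, 38.3, 36.8, 33.2, 33.3 and 33.9 CPM in substituted libraries and 36.1, 35.2, 35.6, 37.3 and 30.7 CPM in WT libraries. It fell without overlap against substituted (log2 fold change -0.27, SE 0.063, adjusted p = 0.00472) and with overlap against WT (log2 fold change -0.26, SE 0.063, adjusted p = 0.00424). Epha1 had 4.09, 3.74, 3.63, 4.04 and 3.84 CPM in ATXN1[82Q] libraries, 4.18, 4.95, 3.81, 4.04 and 4.36 CPM in substituted libraries and 4.45, 5.13, 4.96, 4.23 and 4.23 CPM in WT libraries. Its small fall against WT was without overlap (log2 fold change -0.25, SE 0.089, adjusted p = 0.0421), and 6.01% of its exon bases overlap Zyx on the other strand. The call was lost without ATXN1[82Q] library 2, 3, 4 or 5 or WT library 1, 2 or 3 (adjusted p up to 0.110).

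**Figure D5:**
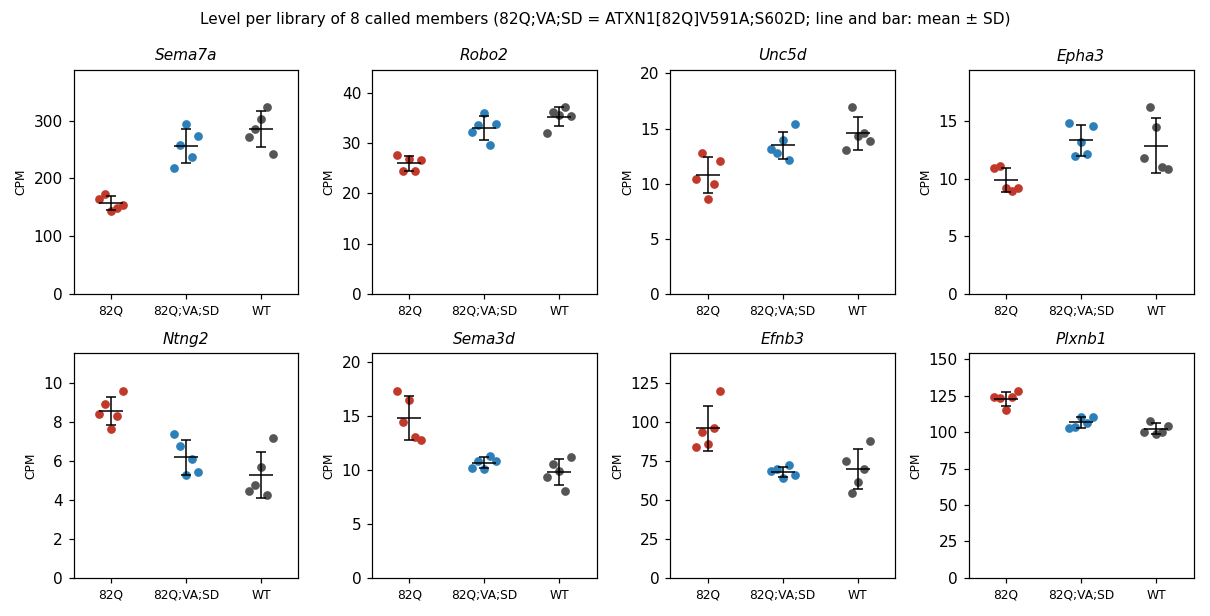
Level per library in CPM of 8 called members, with the mean and SD of the 5 libraries of ATXN1[82Q], ATXN1[82Q]V591A;S602D (82Q;VA;SD) and WT. The ATXN1[82Q] libraries lie below all WT libraries for Sema7a, Robo2 and Unc5d and above them for Ntng2, Sema3d and Plxnb1, and overlap WT for Epha3 and Efnb3.

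Of the netrin receptors only Unc5d was called. Unc5d, a repulsive receptor that also binds Flrt2, had 10.4, 12.8, 8.65, 9.98 and 12.1 CPM in ATXN1[82Q] libraries, 13.1, 12.8, 13.97, 12.1 and 15.4 CPM in substituted libraries and 13.04, 16.95, 14.3, 14.6 and 13.9 CPM in WT libraries. It fell 1.35-fold without overlap against WT (log2 fold change -0.43, SE 0.099, adjusted p = 0.00303) and with overlap against substituted (log2 fold change -0.32, SE 0.099, adjusted p = 0.0225). The second call was lost without ATXN1[82Q] library 3 or 4 or substituted library 5 (adjusted p up to 0.0652). Dcc, the attractive netrin receptor, had 2.44, 3.45, 3.08, 3.12 and 4.17 CPM in ATXN1[82Q] libraries, 2.67, 2.39, 2.72, 2.59 and 4.49 CPM in substituted libraries and 3.17, 2.902, 2.19, 2.67 and 2.72 CPM in WT libraries. It was low, overlapped between genotypes and was not called.

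Robo2 (chr16:73891839-74411825, minus strand) and Robo1, the main neuronal Slit receptors, both fell against WT. Robo2 had 27.7, 24.4, 26.7, 24.4 and 26.6 CPM in ATXN1[82Q] libraries, 32.1, 33.5, 35.9, 29.5 and 33.7 CPM in substituted libraries and 32.1, 36.1, 35.5, 37.1 and 35.3 CPM in WT libraries. All ATXN1[82Q] libraries lay below all others, and it fell 1.36-fold against WT (log2 fold change -0.44, SE 0.056, adjusted p = 1.5e-05) and 1.27-fold against substituted (log2 fold change -0.34, SE 0.056, adjusted p = 0.000336). Robo1 had 20.5, 20.3, 21.8, 18.4 and 22.8 CPM in ATXN1[82Q] libraries, 20.5, 21.1, 22.8, 20.1 and 22.99 CPM in substituted libraries and 23.1, 22.3, 24.2, 22.3 and 23.97 CPM in WT libraries. Its small fall against WT was with overlap (log2 fold change -0.16, SE 0.058, adjusted p = 0.0451), and the call was lost without ATXN1[82Q] library 1, 2 or 4, substituted library 2 or any WT library (adjusted p up to 0.122). Robo3, a receptor of commissural axons, had 1.94, 1.27, 1.58, 1.47 and 1.85 CPM in ATXN1[82Q] libraries, 1.73, 1.19, 1.75, 0.907 and 1.53 CPM in substituted libraries and 1.18, 1.07, 1.35, 1.21 and 1.26 CPM in WT libraries. Robo3 was low and not called (log2 fold change 0.42, SE 0.18, adjusted p = 0.0844 against WT). Robo4, a Robo of blood vessels, was not called either.

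In substituted against WT, none of the 70 tested members was called by edgeR or by DESeq2, where edgeR called 1.41% of all genes. At an unadjusted p under 0.05 there were 9 members, 12.9%, against 11.7% of all genes. These were Epha6, Ntng1, Sema3a, Unc5b, Slit3, Sema6c, Sema4d, Ntn4 and Ephb2, all of them higher in substituted libraries. Log2 fold changes ran from -0.17 to 0.54 with a median of 0.043, and the 5 libraries of a genotype overlapped the other 5 for every member, where 3.16% of all genes had no overlap. Epha6 was the highest at a log2 fold change of 0.54 (adjusted p = 0.320). Epha6 had 3.53, 4.01, 3.06, 2.25 and 4.26 CPM in ATXN1[82Q] libraries, 7.02, 4.63, 4.7001, 2.77 and 4.75 CPM in substituted libraries and 2.54, 2.98, 4.39, 3.65 and 2.87 CPM in WT libraries. Substituted library 1 was the highest of them. Sema7a had a log2 fold change of -0.16 (adjusted p = 0.469) and Robo2 of -0.098 (adjusted p = 0.538). A miss of the threshold does not show that these levels were the same.

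In ATXN1[82Q] against substituted, 27 of the 70 members were called, 38.6%, against 28.1% of all genes. Of these 15 rose and 12 fell, against 13.5% and 14.6% of all genes. Libraries did not overlap for 16 members, 22.9%, against 17.9% of all genes, with 9 above and 7 below, against 8.28% and 9.61%. Only Sema7a, Efna4 and Sema5b were called with a change over 1.5-fold, 4.29% of the members, against 4.85% of all genes. Efna4, Ntn1, Ntn4, Plxna2, Sema4a, Sema4d, Sema5b and Slit3 were called here and not against WT. Both comparisons use the same 5 ATXN1[82Q] libraries, and the difference between them was not tested.

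Other genes of these pathways, 44 co-receptors, adaptors, GTPase regulators and collapsin response mediators, were all tested. Because this list was chosen with earlier results of these data known, its shares describe the listed genes only. In ATXN1[82Q] against WT 9 rose, 20.5% of them against 16.6% of all genes, and 15 fell, 34.1% against 14.9% of all genes. Their median log2 fold change was -0.023, against 0.0069 over all genes. In ATXN1[82Q] against substituted 10 rose, 22.7% against 13.5% of all genes, and 17 fell, 38.6% against 14.6% of all genes. In substituted against WT 1 fell, Chn1, which is described for that reason. Chn2, a chimaerin that switches off Rac downstream of neuropilin receptors, had 384, 385, 438, 411 and 394.6 CPM in ATXN1[82Q] libraries, 609, 522, 559, 563 and 615 CPM in substituted libraries and 622, 687, 725, 596 and 646 CPM in WT libraries. Chn2 fell without overlap against WT (log2 fold change -0.70, SE 0.059, adjusted p = 1.16e-07). Kalrn, an exchange factor for Rac at dendritic spines, had 37.3, 39.1, 35.9, 35.97 and 39.7 CPM in ATXN1[82Q] libraries, 47.1, 48.3, 56.04, 49.9 and 53.98 CPM in substituted libraries and 53.4, 60.2, 56.8, 55.2 and 52.1 CPM in WT libraries. Kalrn also fell without overlap against WT (log2 fold change -0.56, SE 0.054, adjusted p = 6.01e-07). Flrt3, an adhesion protein that can bind Robo1 and Unc5 receptors, had 25.2, 23.3, 25.7, 24.5 and 25.9 CPM in ATXN1[82Q] libraries, 32.3, 32.1, 32.9, 33.7 and 32.9 CPM in substituted libraries and 31.9, 33.4, 38.7, 36.3 and 35.8 CPM in WT libraries. All ATXN1[82Q] libraries lay below the others (log2 fold change -0.50, SE 0.049, adjusted p = 9e-07). Ngef, ephexin, an exchange factor that binds EphA receptors, had 11.5, 11.96, 8.89, 11.4 and 12.8 CPM in ATXN1[82Q] libraries, 8.46, 8.44, 8.199, 10.2 and 8.75 CPM in substituted libraries and 8.52, 5.37, 7.45, 7.03 and 7.804 CPM in WT libraries. Its rise against WT was without overlap (log2 fold change 0.64, SE 0.11, adjusted p = 0.000361). Dpysl3, a collapsin response mediator of semaphorin signalling, had 35.6, 38.8, 33.01, 32.4 and 43.9 CPM in ATXN1[82Q] libraries, 27.4, 27.6, 26.3, 26.3 and 28.4 CPM in substituted libraries and 27.8, 24.5, 26.3, 27.1 and 31.1 CPM in WT libraries. It rose without overlap against WT (log2 fold change 0.42, SE 0.076, adjusted p = 0.000448). Rhod, a small GTPase, had 2.31, 2.79, 2.701, 2.93 and 2.84 CPM in ATXN1[82Q] libraries, 1.93, 3.19, 4.47, 3.27 and 3.69 CPM in substituted libraries and 4.14, 4.81, 3.66, 3.88 and 4.93 CPM in WT libraries. Rhod fell without overlap against WT (log2 fold change -0.66, SE 0.16, adjusted p = 0.00558). Chn1, a chimaerin downstream of Epha4, had 80.2, 82.5, 76.3, 77.9 and 80.5 CPM in ATXN1[82Q] libraries, 85.2, 92.9, 99.96, 91.7 and 90.8 CPM in substituted libraries and 105, 105, 105, 107 and 97.8 CPM in WT libraries. It was called lower in substituted against WT (log2 fold change -0.17, SE 0.038, adjusted p = 0.0273), with substituted library 3 above the lowest WT library. Chn1 was lower still in ATXN1[82Q], where every library lay below all those of the other genotypes.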

How the data were processed

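The deposited files hold whole-number read counts per gene for each library, which were not normalised. The submitters' processing notes name STAR 2.5.3a, HTSeq and DESeq2 as the authors' tools and mm10 as the build. How strand and annotation were set is not given in the sources used, so overlapping genes may share or lose counts. Per the labels' protocols, cDNA was amplified from 10 ng of RNA with poly(A) and random priming. Left out were reads in no gene (16.8% to 18.2%), those in more than 1 gene (1.18% to 1.25%) and those aligned to several places (12.8% to 14.6%).

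Counts of all 15 libraries were fitted together in edgeR 4.0.16 (R 4.3.3) with a mean per genotype, TMM factors of 0.968 to 1.04 and filterByExpr at a minimum count of 10, and tested with the quasi-likelihood F-test, which was first tested on simulated data. The common biological coefficient of variation was 0.102. Each SE was derived as the size of the log2 fold change divided by the square root of its F statistic. DESeq2 1.42.0 was an alternative. CPM were TMM-scaled, and log2 CPM used a prior count of 2. A chi-square test of counts found no duplicate among the 30 pairs of libraries of a genotype (5.49 to 38.8 per degree of freedom). Positions and exon lengths came from GENCODE M21 (GRCm38), where all 71 symbols were found. Library values are given for the 24 members called in ATXN1[82Q] against WT with the largest changes, for all members called between the transgenes, for uncalled partners of called members and for the 6 called pathway genes with the largest changes. Chn1, Epha2, Epha6, Sema3b and some low or uncalled members were added after their values were seen. Members and lists were chosen with earlier results of these data known.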

Additional observations from a re-analysis of the deposited data

Results flagged for a closer look

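Among the 210 groups of 5 libraries, a group being a member in a genotype, 10 had a library far from the other 4, where chance gives about 1 in 20 groups, or 10.5. In ATXN1[82Q], Epha2 was 3.11 CPM in library 2 (others 1.35 to 1.75), Plxnb3 was 57.4 CPM in library 1 (others 49.3 to 51.4) and Sema3g was 5.79 CPM in library 1 (others 4.64 to 4.77). In substituted cerebellum, Dcc was 4.49 CPM in library 5 (others 2.39 to 2.72), Epha10 was 16.9 CPM in library 5 (others 14.5 to 15.2), Efna2 was 9.24 CPM in library 2 (others 7.07 to 7.62) and Sema4d was 78.7 CPM in library 1 (others 72.2 to 73.9). In WT, Sema3b was 13.7 CPM in library 5 (others 2.07 to 5.38), Sema6a was 47.8 CPM in library 3 (others 40.8 to 42.5) and Ephb1 was 37.5 CPM in library 2 (others 44.5 to 47.2). Of these members, Plxnb3 and Epha10 kept their calls against WT without any single library.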

How the results depend on the processing

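Of the 26 members called in ATXN1[82Q] against WT (15 higher, 11 lower), 21 kept their call without any single library, and of the 27 called against substituted (15 higher, 12 lower), 18 did. Without 1 library the counts against WT ran from 12 to 17 higher and from 9 to 11 lower, those against substituted from 10 to 15 higher and from 10 to 14 lower, and those of substituted against WT stayed at 0 in both directions. DESeq2 kept 26 of the 26 calls against WT and 26 of the 27 against substituted. Replicate numbers did not pair the libraries, since 4 of 15 same-number pairs correlated above 0.1 (median -0.109) and 3 of 15 libraries correlated best with their own number. A fit with the replicate block kept 23 of 26 calls, with 14 higher and 10 lower against WT, and 25 of 27 against substituted.

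With the mean of the 5 tested brainstem markers as a covariate, 7 members were lower against WT and 7 higher against substituted, and 15 of 26 and 17 of 27 calls were kept. Calls lost there against WT were those of Efna5, Epha1, Epha3, Epha7, Ephb2, Ephb6, Nrp1, Ntng1, Robo1, Sema4f and Slit2. In the 7 libraries with Ttr under 100 CPM, 3 were higher and 6 lower against substituted, with 15 of 26 calls kept against WT and 6 of 27 against substituted. The libraries left were ATXN1[82Q] 1 and 3, substituted 1 and 5 and WT 2, 3 and 4, so each genotype kept few. With the meningeal marker mean as a covariate, an alternative chosen after seeing the data, 4 were higher and 2 lower in ATXN1[82Q] against WT, 3 higher in substituted against WT (Epha6, Ntng1 and Sema3a), and 0 higher and 1 lower against substituted. It kept 2 of 26 calls against WT and 1 of 27 against substituted, and Epha8, Sema3a, Sema5a and Sema6d gained a call against WT. This covariate gave the only changes of sign among called log2 fold changes: against WT, Slit2 at -0.23 and Epha7 at 0.0042, and against substituted, Ntn1 at -0.063, Sema4a at -0.0137 and Sema4d at 0.00024. The sums of these markers were higher in every ATXN1[82Q] library than in all others. In the comparisons with ATXN1[82Q], the effect of this covariate and that of the genotype therefore cannot be told apart. Substituted and WT sums overlapped (220 to 410 CPM and 199 to 424 CPM). With brainstem marker sums under 3 CPM only (12 libraries, also chosen after seeing the data), 19 of 26 and 22 of 27 calls were kept. Against WT this setting lost the calls of Efna5, Epha1, Ephb2, Ephb6, Nrp1, Ntng1 and Slit2. The causes of these losses were not tested. Ntn5 was too low at these depths to be tested.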
